A study of Arabidopsis thaliana with 18 samples.

Results

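Rosette leaves of the Arabidopsis thaliana line jar1-11 were compared with those of wild type (WT) under regular watering, with 3 libraries of each line out of the 18 in the series. All 6 libraries were taken by their labels: WT is the Columbia accession Col-0, and jar1-11 is labelled as a knockdown line of JAR1 (SALK_034543, a line from an insertion collection). Plants of both lines grew at 22 °C with 16 h of light and 8 h of dark and were sampled at day 32, after 18 days of regular watering and continued watering thereafter. The other 12 libraries came from plants left without water for 14 days and from JAR1-OE, a line labelled as overexpressing JAR1.1, and they entered the estimate of the spread. In watered JAR1-OE the JAR1 gene itself had 23.8 ± 3.27 CPM (SD, n = 3) beside 25.3 ± 4.18 CPM in watered WT, and the reads of the transgene, 88 to 307 per library, stood under a separate YFP-JAR1 entry. The labels give 1 insertion line only, and whether a replicate is 1 plant or several plants together is not said, so that only the spread among these libraries stands behind the p-values. Each library was made from whole-rosette RNA by 3' tag sequencing, in which reads of 50 bases start near the 3' end of a transcript, and levels are CPM, the reads of a gene relative to a library total scaled by the TMM method.

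Jasmonic acid (JA) is made from linolenic acid of the chloroplast, first by lipoxygenase (LOX), allene oxide synthase (AOS) and allene oxide cyclase (AOC), then by a reductase (OPR3) and beta-oxidation in the peroxisome. JAR1, a member of the GH3 family, joins JA to isoleucine, and the conjugate JA-Ile is the form that the receptor COI1 binds together with a JAZ repressor. JAZ proteins are then degraded, which frees MYC2 and related factors to switch on their targets, among them the vegetative storage proteins VSP1 and VSP2 and the JAZ genes themselves. In leaves the pathway is best known from responses to wounding and chewing insects.

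Totals over genes ran from 4716155 to 9506727 reads in the 6 libraries, where 3 reads equal 0.316 to 0.636 CPM. WT library 1 stood apart from the others. Over genes of at least 10 CPM its median absolute log2 ratio to the other 5 libraries was 0.417, where each of the others lay between 0.171 and 0.207. It was also the shallowest of the 6, at 4716155 reads. Of the 9 pairs of a WT and a jar1-11 library, the 6 without WT library 1 differed by 0.164 to 0.217. The 3 pairs within jar1-11 differed by 0.153 to 0.203, and WT libraries 2 and 3 by 0.177. With WT library 1 set aside, the ranges of pairs from different lines and from the same line overlapped. Results are given with all 6 libraries, and calls and list medians that move without WT library 1 are given beside them. Medians without WT library 1 come from the fit of the remaining 17 libraries unless another fit is named. Each fit filtered genes anew, so medians of the same list can cover different members. Calls given beside them come from the fit of the remaining 5 watered libraries.

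**Figure D1:**
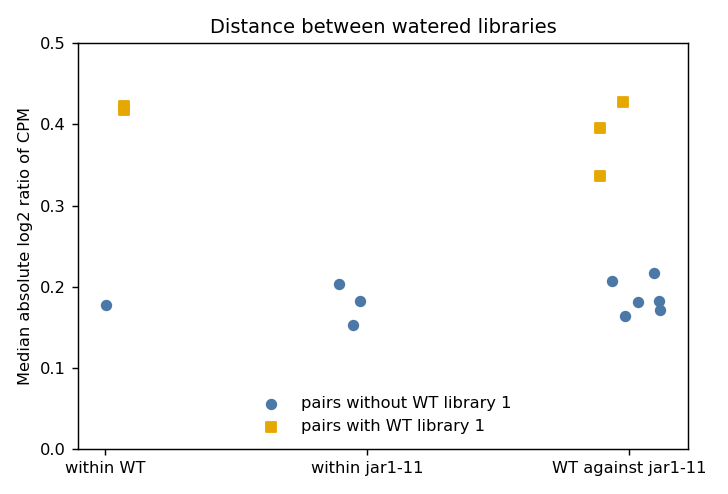
Median absolute log2 ratio of CPM for each pair of the 6 watered libraries, over genes of at least 10 CPM, by kind of pair. Squares are the pairs that hold WT library 1, at 0.336 to 0.428, and circles are the others, all between 0.153 and 0.217 in the 3 kinds of pair.

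JAR1 (AT2G46370; chromosome 2, 19033586 to 19036683, plus strand, TAIR10.1) had 22.3, 23.4 and 30.04 CPM in the 3 WT libraries and 6.62, 5.26 and 5.20 CPM in the 3 jar1-11 libraries. In reads these were 100, 145 and 214 against 64, 36 and 31. All jar1-11 libraries lay far below all WT libraries, and the groups did not overlap. The transcript fell by 2.14 on the log2 scale (SE 0.24, 95% interval -2.64 to -1.64) to 22.5% of the WT level, with an adjusted p of 5.85e-04. Adjusted p-values here and below come from edgeR's quasi-likelihood test with Benjamini-Hochberg adjustment over 17678 genes tested. An exact 2-sided permutation test of JAR1 alone gave p = 0.1, the smallest that the 20 splits of 3 against 3 allow. Between 31 and 64 reads of JAR1 per library were left in jar1-11. Reads near the 3' end do not show whether that remnant is a full transcript. In plants left without water the difference from WT was -3.57 ± 0.27 (log2 ± SE, adjusted p = 8.53e-07), among 6105 genes past the threshold in that comparison (34.5% of those tested).

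**Figure D2:**
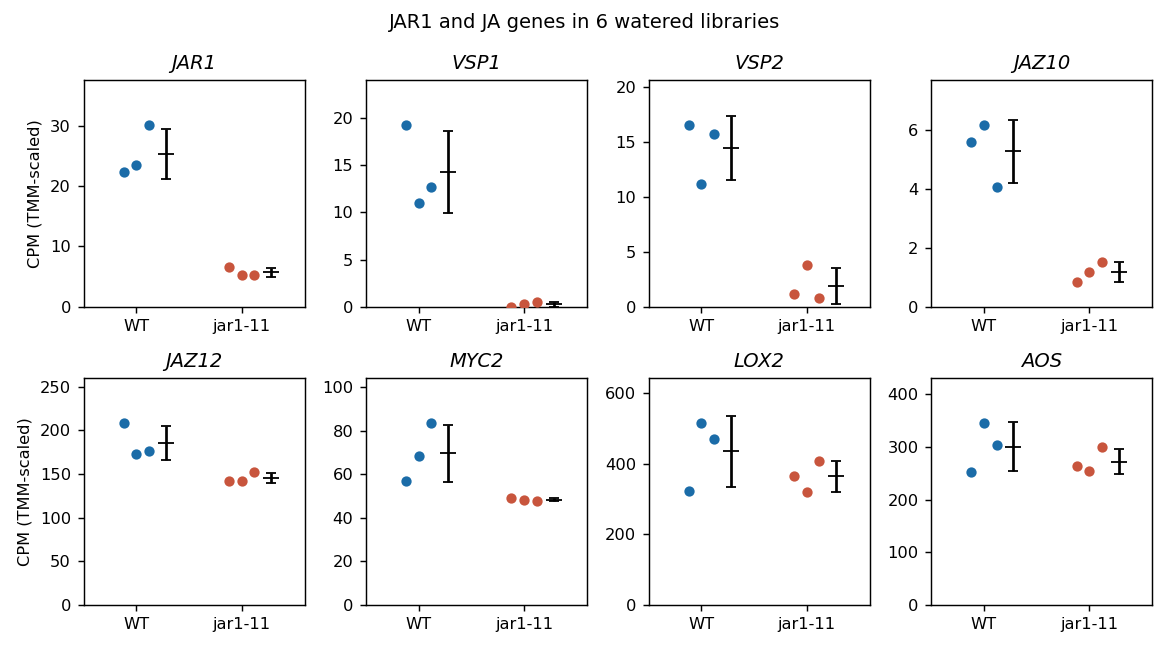
CPM of JAR1 and 7 JA genes in the 3 watered WT and the 3 watered jar1-11 libraries (points, libraries 1 to 3 from left to right), with the mean and SD of each group beside them, on axes that start at 0. JAR1, VSP1, VSP2, JAZ10, JAZ12 and MYC2 do not overlap between the lines, LOX2 and AOS do, and JAR1 passed the test of 17678 genes.

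JAR1 was the 1 gene of 17678 past the threshold of an adjusted p under 0.05, a share of 0.00566%, and the next gene, the peroxidase gene PER64, had an adjusted p of 0.111. At an unadjusted p under 0.05 there were 976 genes (5.52%), of which 617 had lower and 359 higher values in jar1-11. The watered JAR1-OE libraries, set against the same WT libraries, gave 1859 genes past the threshold (10.5%). On data simulated for this comparison with 17511 genes, the test called 87% of 100 genes given a 4-fold change and 47% of 100 given a 2-fold one. That simulation gave 138 calls and held no library that stood apart as WT library 1 did. With 1 call in the real data the adjusted threshold is harder to pass, so these shares may be too high here. A change of a single gene of 2-fold or more could be missed. DESeq2 called 13 genes (0.0563%), all lower in jar1-11. A fit of the 9 watered libraries called 9 (0.0537%), of which 8 were lower, and a fit of the 6 libraries alone called 2 (0.0124%), JAR1 and VSP1. Leaving WT library 1 out of that last fit gave 42 calls (0.254%), 36 of them lower in jar1-11. In that fit of 6, the adjusted p of JAR1 itself lay between 0.0523 and 0.1055 when WT library 3 or any 1 of the jar1-11 libraries was left out.

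How far each gene could have moved is set by its interval. Genes with a mean of at least 10 CPM over the 6 libraries are called well measured below; there were 10292 of them, and they held 96.8% of all reads. For 9622 of these (93.5%) the 95% interval of the fold change lay wholly inside 2-fold in either direction, against 71.8% of all genes tested. By 2 one-sided tests against a 2-fold change, with Benjamini-Hochberg adjustment, 9811 well measured genes (95.3%) were within 2-fold. A limit of 1.5-fold was met by the intervals of 5404 (52.5%) and by the adjusted tests of 3908 (38.0%). The larger end of the interval, taken as a fold in either direction, had a median of 1.49-fold and was under 2.07-fold for 95% of well measured genes. For the 670 remaining well measured genes, JAR1 among them, the interval reached 2-fold or beyond on at least 1 side.

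The limit depended on the level of a gene mainly below 10 CPM. Of 6448 genes between 1 and 10 CPM the interval was inside 2-fold for 47.6%. Between 10 and 50 CPM it was 93.0%, between 50 and 200 CPM 95.1%, between 200 and 1000 CPM 93.1% and above 1000 CPM 92.4%. Beyond 50 CPM more reads gave no narrower limits, with a median SE of 0.18 to 0.20 on the log2 scale. Without WT library 1 the share of well measured genes inside 2-fold was 93.1% in the fit of the remaining 17 libraries and 97.1% in a fit of the remaining 5. Intervals lay wholly beyond 2-fold for 2 well measured genes, JAR1 and the plant thionin gene AT1G66100, which did not pass the adjusted test. For AT1G66100 this rested on single libraries: the interval was -1.93 to -0.68 without WT library 1, -2.26 to -0.81 without jar1-11 library 2 and -2.40 to -0.91 without jar1-11 library 3.

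**Figure D3:**
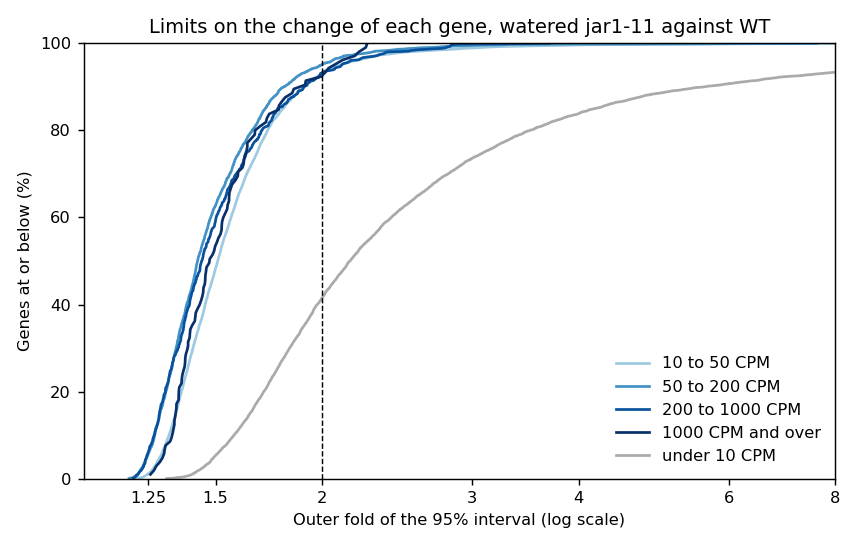
Share of genes (y axis, percent) whose 95% interval of the fold change reaches no farther than the fold on the x axis (log scale), by mean level. The dashed line is 2-fold, where the 4 curves of genes of at least 10 CPM reach 92.4% to 95.1%.

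**Figure D4:**
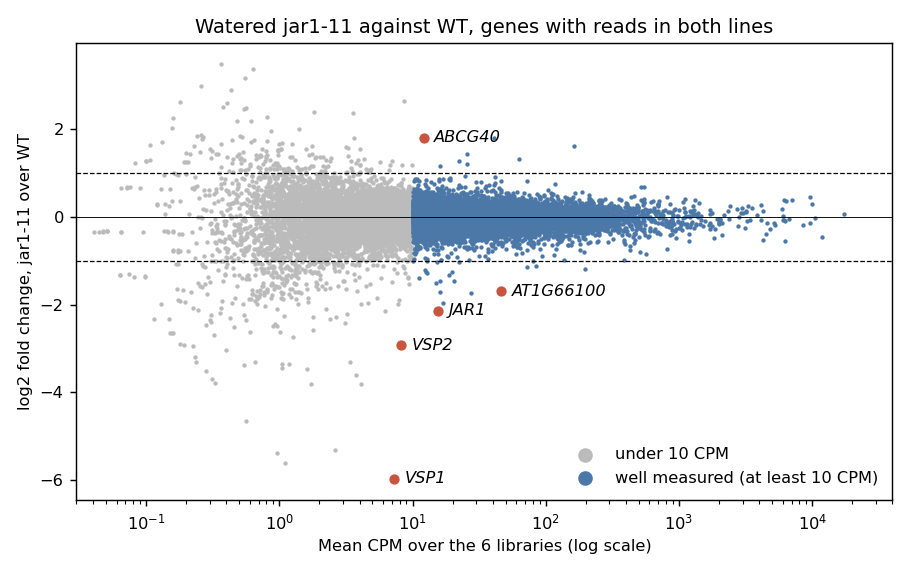
Log2 fold change of jar1-11 over WT (y axis) against the mean CPM of the 6 watered libraries (x axis, log scale), 1 point per gene tested with reads in both lines. Dashed lines mark 2-fold; points of at least 10 CPM form a narrow band around 0, and the 5 named genes are JAR1, VSP1, VSP2, ABCG40 and AT1G66100.

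Of the 5 most abundant transcripts, 4 had an interval inside 2-fold. The RNA-binding protein gene GRP7 had 18278, 15596 and 16807 CPM in WT and 15996, 18421 and 18478 CPM in jar1-11, a log2 fold change of 0.06 with an interval of -0.29 to 0.41. The glycine-rich protein gene GRP-3 had an interval of -0.51 to 0.45, and the chloroplast transcript ATCG00470 one of -0.55 to 0.28. ECS1 had 9420.0, 8344 and 9164 CPM in WT and 11413, 11141 and 10455 CPM in jar1-11, which do not overlap, but its log2 fold change of 0.29 had an adjusted p of 0.913. The peroxidase gene PRXR1 had 21763, 8707 and 10404 CPM in WT and 9632, 9329 and 11007 CPM in jar1-11. Its high value was WT library 1, and its interval was -1.18 to 0.28. Of 12 genes in common use as references in expression studies, all 12 were inside 2-fold, with a median of -0.05 that was 0.01 without WT library 1; the polyubiquitin gene UBQ10 had an interval of -0.44 to 0.31, GAPC1 of glycolysis one of -0.54 to 0.30, and the phosphatase subunit PP2AA3 one of -0.71 to 0.15.

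Over 27 lists of leaf pathways and cell types, 309 genes were tested and 0 of them passed the threshold, a set that leaves out JAR1 itself. At an unadjusted p under 0.05 edgeR found 30 lower (9.71%) and 6 higher (1.94%) in jar1-11, beside 3.49% and 2.03% of all genes tested. DESeq2 called 2 list genes, limma-voom 0, the fit of 6 libraries 1 and the fit of the 9 watered libraries 3. All of them were among the JA outputs and JAZ genes described below. Over all genes tested DESeq2 called 0.0563%, the fit of 6 libraries 0.0124% and the fit of 9 libraries 0.0537%. Of the 219 well measured list genes, 155 (70.8%) had an interval inside 2-fold, beside 93.5% of all well measured genes, and 168 were within 2-fold by the adjusted 2 one-sided tests. For comparison, the median log2 fold change of all 17678 genes tested was -0.01. A count of genes whose libraries do not overlap is read below against 5.16% of all genes tested with every jar1-11 library below every WT library, and 4.98% with every one above.

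No gene of JA synthesis passed the test by edgeR, DESeq2 or limma-voom, and 0 of 17 had an unadjusted p under 0.05. LOX2, the lipoxygenase of the leaf chloroplast, had 322, 515 and 469.9 CPM in WT and 365, 321 and 408 CPM in jar1-11, with an interval of -1.08 to 0.57. AOS had 252, 345 and 304 CPM in WT and 263, 254 and 299.7 CPM in jar1-11, with an interval of -0.80 to 0.51, and the cyclase AOC2 one of -0.69 to 0.36. In these 3 genes the libraries of the lines overlapped. OPR3, the reductase, had 69.1, 61.4 and 71.6 CPM in WT and 45.8, 49.4 and 53.6 CPM in jar1-11, with no overlap, a log2 fold change of -0.44 and an adjusted p of 0.893. LOX3 had the largest difference of the well measured members, at 21.4, 16.2 and 18.25 CPM in WT and 7.65, 11.98 and 13.9 CPM in jar1-11 (-0.75, interval -1.88 to 0.38, adjusted p = 0.893). Of 17 genes tested, 15 had values below 0 and 2 above, 0 passed the test, and 4 did not overlap, all lower in jar1-11; 9 of 15 well measured members were inside 2-fold. The list's median was -0.26, and -0.13 without WT library 1. Summed over the list, WT libraries held 1947 to 2020.0 CPM and jar1-11 libraries 1651 to 1870.0 CPM. OPR3 and AOS are named for their place in the pathway, after their values were seen.

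Other members of the GH3 family, which join amino acids to auxin, JA or other acids, had 0 of 7 genes tested past the threshold and 0 at an unadjusted p under 0.05 by edgeR, and 0 by DESeq2. GH3.10, the most abundant, had 82.7, 50.1 and 42.1 CPM in WT and 41.6, 39.3 and 46.9 CPM in jar1-11 (-0.45, interval -1.02 to 0.12). GH3.6 had 11.2, 12.6 and 6.88 CPM in WT and 12.9, 11.0 and 7.54 CPM in jar1-11 (0.06, interval -0.65 to 0.77). The upper ends of these intervals are 1.09-fold for GH3.10 and 1.71-fold for GH3.6. Limits on the other members were looser: 2 of 7 genes tested and 1 of 2 well measured ones were inside 2-fold. Of the 7, 5 had values below 0 and 2 above. GH3.12, below 10 CPM and named after its values were seen, had an interval of -0.91 to 2.04.

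The JAZ repressors, themselves targets of the pathway, had mostly lower values in jar1-11 and 0 genes past the threshold in the fit of all 18 libraries. JAZ12, the most abundant, had 208, 173 and 176 CPM in WT and 142, 142 and 152 CPM in jar1-11, with no overlap (-0.35, interval -0.62 to -0.08, adjusted p = 0.893). JAZ9 had 83.4, 70.3 and 60.8 CPM in WT and 47.6, 46.3 and 42.9 CPM in jar1-11, again with no overlap (-0.65, interval -1.38 to 0.09). JAZ1 overlapped, with 157, 59.0 and 78.7 CPM in WT and 47.3, 68.5 and 76.1 CPM in jar1-11, and its high value was again WT library 1. JAZ10, a low gene known for a strong response to JA, had 5.58, 6.14 and 4.07 CPM in WT and 0.827, 1.17 and 1.51 CPM in jar1-11 (-2.21 ± 0.75, adjusted p = 0.893). It is named after its values were seen, and its adjusted p was 0.0396 when the fit held the 9 watered libraries alone. Of 11 JAZ genes tested, 10 had values below 0, the median was -0.45 (-0.50 without WT library 1), 5 did not overlap and were lower in jar1-11, and 4 of 6 well measured members were inside 2-fold.

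Receptor, transcription factors and their partners had 8 of 9 well measured members inside 2-fold and a median of 0.03. Of 11 genes tested, 5 had values below 0 and 6 above. Summed over the list, WT libraries held 397.2 to 412 CPM and jar1-11 libraries 351.7 to 359.2 CPM. The receptor gene COI1 had 20.5, 32.8 and 43.4 CPM in WT and 44.0, 40.3 and 29.3 CPM in jar1-11, with an interval of -0.21 to 0.66. MYC2, the factor at the head of the wound branch, had 57.1, 68.4 and 83.4 CPM in WT and 49.1, 48.1 and 47.8 CPM in jar1-11. The jar1-11 libraries lay below all WT libraries, with a log2 fold change of -0.53, an interval of -1.05 to -0.01 and an adjusted p of 0.893. MYC3 had an interval of -0.45 to 0.08, and MYC4 one of -0.82 to 0.05, both with overlapping libraries. COI1 is named after its values were seen.

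Enzymes that turn over JA-Ile and JA had a median of -0.82 over 8 genes tested (-0.51 without WT library 1), with 7 below 0 and 0 past the threshold. ST2A, the sulfotransferase of hydroxylated JA, had 134, 119.6 and 99.7 CPM in WT and 48.9, 74.4 and 108 CPM in jar1-11, which overlap in 1 library. JOX2, which hydroxylates JA, had 11.6, 16.2 and 12.2 CPM in WT and 9.62, 7.01 and 8.38 CPM in jar1-11, with no overlap (-0.67, interval -1.58 to 0.23). IAR3, which splits JA-Ile, had an interval of -0.79 to 0.48. With 1 of 3 well measured members inside 2-fold, the limits on this list are loose.

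The leaf outputs of the MYC branch held the largest fold changes of the JA lists. VSP1 and VSP2 are neighbours on chromosome 5, VSP1 at 8507590 to 8509201 and VSP2 at 8500468 to 8502224, both on the minus strand of TAIR10.1. The 250 bases upstream of their annotated starts are shown because these genes had the largest differences in the pathway and are close copies of each other. Capitals mark a T/G-box (AACGTG, or CACGTT on the other strand), a sequence bound by MYC2.
VSP1, chr5:8509202-8509451, minus strand: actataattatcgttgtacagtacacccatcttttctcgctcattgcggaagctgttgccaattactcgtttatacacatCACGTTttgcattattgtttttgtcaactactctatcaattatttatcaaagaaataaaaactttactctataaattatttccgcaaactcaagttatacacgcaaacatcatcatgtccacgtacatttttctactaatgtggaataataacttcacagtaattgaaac
VSP2, chr5:8502225-8502474, minus strand: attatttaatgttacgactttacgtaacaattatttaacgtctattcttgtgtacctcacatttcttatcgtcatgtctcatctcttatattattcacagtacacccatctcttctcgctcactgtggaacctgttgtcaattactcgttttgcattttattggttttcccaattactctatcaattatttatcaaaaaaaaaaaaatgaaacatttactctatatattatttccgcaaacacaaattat
The VSP1 window holds 1 T/G-box, 170 bases upstream of the start, and no G-box (CACGTG). The VSP2 window holds neither. On both strands, with no overlap between the motifs, a T/G-box was found in 7.56% and a G-box in 7.68% of 17583 windows of the same length. A match is a run of letters and not a measured site.

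VSP1 had 19.2, 11.0 and 12.6 CPM in WT and 0, 0.292 and 0.503 CPM in jar1-11. In reads these were 86, 68 and 90 against 0, 2 and 3. VSP2 had 16.5, 11.2 and 15.7 CPM in WT and 1.14, 3.799 and 0.838 CPM in jar1-11. In both genes every jar1-11 library lay far below every WT library, and the groups did not overlap. In the fit of all 18 libraries, whose spread includes plants left without water, neither passed: VSP1 had -5.97 ± 2.19 (log2 ± SE) with an adjusted p of 0.479, and VSP2 -2.93 ± 0.63 with an adjusted p of 0.279. With the 9 watered libraries alone, edgeR gave adjusted p-values of 9.15e-05 for VSP1 and 0.0261 for VSP2, and DESeq2 on all 18 gave 0.0119 and 0.0110. Without WT library 1 in a fit of 5 watered libraries they were 1.79e-04 and 0.00675. As near copies of each other, VSP1 and VSP2 can lose or exchange reads where their 3' ends are alike, and only reads with a single place were counted. They are named after their values were seen.

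Across the outputs of that branch the values went both ways, with more of them lower in jar1-11. Of 14 genes tested, 0 passed the threshold in the fit of 18 libraries. At an unadjusted p under 0.05 there were 7 lower and 2 higher genes of the 14, beside 3.49% lower and 2.03% higher of all genes tested. In all, 9 had values below 0 and 5 above, with a median of -0.58; 7 did not overlap and were lower in jar1-11, and 2 did not overlap and were higher. CORI3, the most abundant, had 253, 147 and 284 CPM in WT and 293, 297 and 232 CPM in jar1-11 (0.27, interval -0.29 to 0.82). The myrosinase-binding protein gene MBP1 had 253, 132 and 112 CPM in WT and 99.7, 136 and 182 CPM in jar1-11, with overlap (-0.25, interval -1.34 to 0.84). ACT, an acyltransferase of agmatine conjugates, had 17.39, 15.2 and 13.9 CPM in WT and 19.96, 26.3 and 61.4 CPM in jar1-11 (1.21, interval 0.02 to 2.40, adjusted p = 0.893), with its highest value in a single jar1-11 library. NATA1, the acetyltransferase of ornithine, had 14.3, 26.2 and 23.7 CPM in WT and 7.96, 13.1 and 12.1 CPM in jar1-11 (-0.98, adjusted p = 0.893, and 0.0277 in the fit of 5 watered libraries without WT library 1); it is named after its values were seen. Of the list, 1 of 8 well measured members was inside 2-fold.

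The ERF branch, which JA shares with ethylene, had loose limits, with 2 of 7 well measured members inside 2-fold, a median of -0.04 and 0 of 9 genes past the threshold or at an unadjusted p under 0.05 by edgeR (0 called by DESeq2). ORA59, its regulator, had 176, 141 and 110.3 CPM in WT and 139.5, 105 and 165 CPM in jar1-11 (interval -0.60 to 0.47). PR4, of the chitin-binding defence proteins, had 339.6, 495 and 268 CPM in WT and 519, 372 and 631 CPM in jar1-11 (interval -0.48 to 1.42). The defensin gene PDF1.2C had 20.1, 48.3 and 38.9 CPM in WT and 36.3, 48.1 and 188 CPM in jar1-11 (1.32, interval -0.28 to 2.93), where jar1-11 library 3 held 188 CPM and the other 2 lay among the WT values. Reads of the PDF1.2 copies are uncertain, since the copies are nearly alike.

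**Figure D5:**
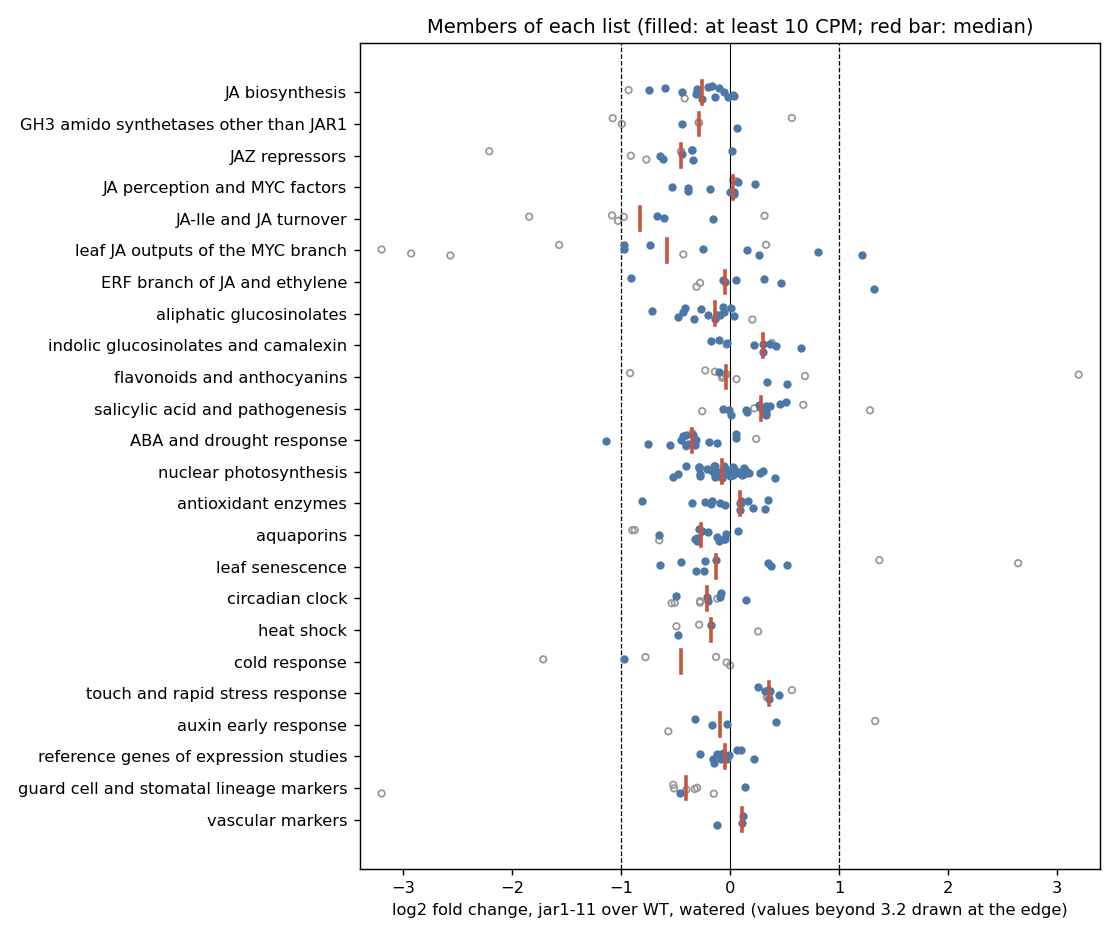
Log2 fold change of jar1-11 over WT (x axis) of each gene tested in 24 lists (y axis). Filled points have at least 10 CPM, open points less, red bars are list medians, dashed lines mark 2-fold, and genes with a line at 0 reads are not drawn. Medians run from -0.82 for JA turnover to 0.35 for touch and rapid stress genes, and no gene drawn passed the test.

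Glucosinolates, the sulfur-rich defence compounds of the mustard family, are partly under MYC control. Of the genes for the aliphatic kind, 12 of 14 well measured members were inside 2-fold, with a median of -0.14. BCAT4, the first enzyme of methionine chain elongation, had 266, 289 and 310.2 CPM in WT and 206, 219 and 227 CPM in jar1-11, with no overlap (-0.41, interval -1.01 to 0.18, adjusted p = 0.893). CYP79F1 had 97.7, 61.9 and 78.5 CPM in WT and 53.6, 50.5 and 40.4 CPM in jar1-11, with no overlap (-0.72, interval -1.29 to -0.14). CYP83A1 overlapped, with an interval of -0.91 to 0.36. For the indolic kind and camalexin, 6 of 9 well measured members were inside 2-fold, with a median of 0.30 that was 0.10 without WT library 1. SOT16, a sulfotransferase of that pathway, had 110.2, 96.7 and 111 CPM in WT and 139, 153 and 133 CPM in jar1-11, with no overlap in the upward direction (0.42, adjusted p = 0.893). CYP83B1 had an interval of -0.26 to 1.00, and CYP79B2 one of -0.66 to 1.97.

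Salicylic acid genes had a median of 0.28 over 17 genes tested, with 14 values above 0, 0 past the threshold or at an unadjusted p under 0.05 by edgeR (0 called by DESeq2), and 6 of 13 well measured members inside 2-fold. The glucanase gene PR2 had 444, 578 and 270.2 CPM in WT and 749, 386 and 297 CPM in jar1-11, a wide spread in both lines (interval -0.79 to 1.09). WRKY70, a factor of that pathway, had 169, 201 and 149 CPM in WT and 195, 159.8 and 224 CPM in jar1-11, with overlap (interval -0.54 to 0.85). ICS1, which starts salicylic acid synthesis, had 27.0, 33.6 and 16.0 CPM in WT and 34.1, 39.7 and 34.9 CPM in jar1-11 (0.51, interval -0.54 to 1.56, adjusted p = 0.913).

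Abscisic acid (ABA) and drought genes, which respond to loss of water, had a median of -0.35 over 19 genes tested (-0.36 without WT library 1), with 16 values below 0 and 10 of 15 well measured members inside 2-fold. KIN2, the most abundant, had 6285, 6242 and 9815 CPM in WT and 5459.6, 4179 and 5554 CPM in jar1-11, with no overlap (-0.56, interval -1.08 to -0.03, adjusted p = 0.893). RD26, a NAC factor, had 161, 79.4 and 55.6 CPM in WT and 42.7, 45.1 and 46.3 CPM in jar1-11 (-1.14 ± 0.28, adjusted p = 0.499). The jar1-11 values of RD26 lay close together, below a WT group whose highest value was again library 1. RD22 had 927, 832 and 872 CPM in WT and 1002, 891 and 840.4 CPM in jar1-11 (interval -0.37 to 0.48). In 4 of the 19 genes the lines did not overlap, all lower in jar1-11. By edgeR 0 passed and 4 of the 19 had an unadjusted p under 0.05, all lower, beside 3.49% lower of all genes tested. DESeq2 called 0.

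Photosynthesis and antioxidant genes had most of their members inside 2-fold. Of 42 nuclear photosynthesis genes, all well measured, 38 were inside 2-fold, with a median of -0.07 and of 0.00 without WT library 1. The photosystem subunit gene PSBR had 4216, 5705 and 6816 CPM in WT and 6381, 6776 and 5764 CPM in jar1-11 (interval -0.18 to 0.54). PSAG had 7496, 4145 and 4139.8 CPM in WT and 4418, 4688 and 3847 CPM in jar1-11 (interval -0.78 to 0.21), and the antenna gene LHCB2.1 702, 349.7 and 311 CPM in WT and 327, 315 and 307 CPM in jar1-11 (interval -1.05 to 0.01). In both PSAG and LHCB2.1, WT library 1 was the high one. Of 15 antioxidant genes, 14 were inside 2-fold, with a median of 0.09 and of -0.03 without WT library 1; the catalase gene CAT3 had an interval of -0.39 to 0.28 and the peroxidase gene APX1 one of -0.22 to 0.56. The exception was CSD2, the chloroplast superoxide dismutase, at 280.1, 279 and 181 CPM in WT and 144, 117 and 162 CPM in jar1-11, with no overlap (-0.81, interval -1.55 to -0.07, adjusted p = 0.893).

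Aquaporins, the water channels, had 10 of 13 well measured members inside 2-fold and a median of -0.27 (-0.20 without WT library 1), with 15 of 16 values below 0. TIP1;2 of the vacuole had 3214, 3177 and 2534 CPM in WT and 2557, 2686 and 2511 CPM in jar1-11 (interval -0.63 to 0.22), PIP2;6 of the plasma membrane had an interval of -0.74 to 0.13, and PIP2;7 one of -1.48 to 0.18. Clock genes had 6 of 6 well measured members inside 2-fold (TOC1 -0.95 to -0.04, PRR7 -0.44 to 0.27). Of 11 clock genes tested, 10 had values below 0, with a median of -0.22 with or without WT library 1. Summed over the clock list, WT libraries held 449.6 to 486.4 CPM and jar1-11 libraries 392.6 to 431.5 CPM. In the senescence list 4 of 9 were inside; SAG21 had an interval of -0.10 to 0.85, and NYC1, which breaks down chlorophyll b, had 223, 166 and 150.2 CPM in WT and 108, 105 and 133 CPM in jar1-11 with no overlap (-0.64, adjusted p = 0.893). The list's median was -0.13, and 0.24 without WT library 1.

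Among the remaining stress and growth lists, touch and rapid stress genes had a median of 0.35 with 9 of 9 values above 0 and 1 of 6 well measured members inside 2-fold; TCH3, a calcium-binding protein gene, had 612, 497 and 515 CPM in WT and 616, 707 and 749.7 CPM in jar1-11, with no overlap (0.35, adjusted p = 0.915), and TCH2 had an interval of -0.19 to 1.08. All 6 cold genes tested had values below 0, the highest of them near 0, with a median of -0.45. Of the cold genes, COR15B had 318, 432 and 775 CPM in WT and 264, 195 and 318 CPM in jar1-11 (-0.97, adjusted p = 0.705, and 0.0278 in the fit of 5 watered libraries without WT library 1). Heat shock genes had 1 of 2 well measured members inside 2-fold (HSP90.1 -1.19 to 0.23, HSP70-4 -0.90 to 0.55), and ZAT12 of the cold list was below 10 CPM. Early auxin genes had a median of -0.09, which was 0.29 without WT library 1, and 2 of 4 inside 2-fold (IAA2 -0.41 to 0.36, IAA3 -0.58 to 0.25, IAA29 -0.16 to 1.00), and flavonoid genes 2 of 3 (CHS -0.23 to 0.92, DFR -0.12 to 1.17).

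The tissue was checked against markers of other cell types. Flower markers summed to 1.62 to 4.07 CPM in WT libraries and 2.28 to 2.78 CPM in jar1-11 libraries, with 3 of 7 tested. Root markers summed to 0.97 to 1.97 CPM in WT and 0.838 to 2.34 CPM in jar1-11, with 2 of 6 tested; the root glucosidase gene PYK10 had 1.34, 0.323 and 0.842 CPM in WT and 0 reads in all jar1-11 libraries. Cell division genes summed to 5.50 to 10.0 CPM in WT and 6.04 to 9.35 CPM in jar1-11. Phloem markers had 3 of 3 inside 2-fold (SUC2 -0.52 to 0.27, PP2-A1 -0.27 to 0.51), and so did both well measured guard cell genes (FAMA -0.77 to -0.16, KAT1 -0.52 to 0.79). FAMA, a factor of the stomatal lineage, had 50.4, 46.7 and 51.5 CPM in WT and 38.2, 37.7 and 31.7 CPM in jar1-11, with no overlap (-0.46, adjusted p = 0.893). Of 9 genes tested in the guard cell and stomatal lineage list, 8 had values below 0 and 1 above, with a median of -0.40. In this list 3 genes did not overlap, all lower in jar1-11. Its sums were 76.96 to 91.43 CPM in WT libraries and 65.55 to 71.44 CPM in jar1-11 libraries, which do not overlap. In bulk leaves, fewer cells of a type and less RNA per cell cannot be told apart.

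The largest differences among well measured genes that did not pass in the fit of 18 libraries were JAL23, ABCG40, AT1G75945, NIT2 and AT4G11320. The jacalin lectin gene JAL23 had 41.7, 18.3 and 20.2 CPM in WT and 1.76, 6.87 and 12.7 CPM in jar1-11 (-1.96 ± 0.46, adjusted p = 0.479). The transporter gene ABCG40 had 6.02, 5.98 and 4.21 CPM in WT and 15.0, 18.0 and 23.6 CPM in jar1-11 (1.81 ± 0.82, adjusted p = 0.893), and it passed in the fit of the 9 watered libraries (adjusted p = 0.0156) and in that of 5 without WT library 1 (0.00571). AT1G75945, which has no described product, had 29.9, 3.395 and 22.0 CPM in WT and 56.8, 59.2 and 73.3 CPM in jar1-11 (1.79 ± 0.78). The nitrilase gene NIT2 had 23.0, 77.8 and 26.9 CPM in WT and 15.8, 7.01 and 15.6 CPM in jar1-11 (-1.73 ± 0.74), and the papain-type protease gene AT4G11320 31.7, 16.8 and 24.7 CPM in WT and 6.41, 4.68 and 11.6 CPM in jar1-11 (-1.71 ± 0.68). In all 5 the libraries of the lines did not overlap, and in AT1G75945 and NIT2 1 WT library lay far from the other 2. In the fit of 5 watered libraries without WT library 1, edgeR called AT1G75945 (2.27, adjusted p = 0.0278) and NIT2 (-2.02, adjusted p = 0.0277) too.

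Ranked by p, the 30 genes at the top, JAR1 included, had 26 lower and 4 higher values in jar1-11, a list chosen after the values were seen. The thionin gene AT1G66100 had 105, 54.0 and 54.7 CPM in WT and 27.9, 16.8 and 20.8 CPM in jar1-11 (-1.69 ± 0.31, adjusted p = 0.123), and it passed in the fit of the 9 watered libraries (0.0396), with DESeq2 (0.00309) and in the fit of 5 without WT library 1 (-1.30, 0.00571). PER64 had 2.01, 8.25 and 5.19 CPM in WT and 0.207, 0.146 and 0 CPM in jar1-11 (-5.31 ± 1.14, adjusted p = 0.111). It passed with DESeq2 (0.0121), in the fit of the 9 watered libraries (0.0261) and in that of 5 without WT library 1 (0.00122). The calmodulin-like gene CML41 had 113, 103 and 132 CPM in WT and 54.2, 52.7 and 55.2 CPM in jar1-11 (-1.11 ± 0.28, adjusted p = 0.656, and 0.00265 in the fit of 5 watered libraries without WT library 1). The tetraspanin gene TET3 had 48.6, 51.4 and 55.2 CPM in WT and 33.5, 31.6 and 30.01 CPM in jar1-11, close within each line (-0.71 ± 0.14, adjusted p = 0.244). Its interval of -1.006 to -0.408 reached 2.008-fold, just outside the 2-fold limit. By the adjusted 2 one-sided tests it was within 2-fold. DESeq2 called TET3 (0.00444), as did the fit of 5 watered libraries without WT library 1 (0.0360).

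Another 4 genes had 0 reads in all 3 jar1-11 libraries and at least 20 in WT, where most came from libraries 2 and 3. The cell wall protein gene AT2G20870 had 1, 30 and 66 reads in WT, which is at least 40.8-fold lower in jar1-11 with its group set to 3 reads in all. AT1G62500, of the lipid-transfer protein family, had 3, 48 and 23 reads (at least 31.2-fold lower), the cupredoxin gene AT1G22480 had 1, 28 and 20 (at least 20.6-fold lower), and the extensin-type gene AT5G22430 had 2, 5 and 19 (at least 11.0-fold lower). Their adjusted p-values were 0.893, 0.762, 0.305 and 0.893 in the same order. DESeq2 called AT2G20870 (2.35e-17) and AT1G22480 (0.00582). The fit of 5 watered libraries without WT library 1 called AT2G20870 (0.00124), AT1G62500 (0.00430) and AT1G22480 (0.00675). In all 4 genes WT library 1 held at most 3 reads, so the WT libraries differed widely among themselves. The genes are named after their values were seen.

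Genes next to JAR1 on chromosome 2 gave no call. Of the 5 genes tested on either side, from AT2G46290 at 19005771 to AT2G46420 ending at 19057162, 0 of 10 passed and 0 had an unadjusted p under 0.05 by edgeR, and DESeq2 called 0. SPA1, the nearest upstream (19022154 to 19027528), a regulator of light signalling, had 27.0, 19.6 and 16.98 CPM in WT and 13.8, 15.9 and 20.5 CPM in jar1-11 (interval -0.74 to 0.07). AT2G46380, the nearest downstream, had 0.669, 1.78 and 1.82 CPM in WT and 1.45, 1.02 and 0.671 CPM in jar1-11. The succinate dehydrogenase subunit gene SDH8 had 56.6, 71.8 and 75.2 CPM in WT and 93.4, 59.0 and 92.7 CPM in jar1-11 (interval -0.11 to 0.64). AGP16 had an interval of -0.51 to 0.86 and WRKY46 one of -0.62 to 0.97. CRF5, AT2G46320 and AT2G46420 had log2 fold changes of -0.11, 0.14 and 0.39, and the low gene CPC one of -1.003.

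Genes that differed under drought were taken from libraries outside the comparison and looked up in it. In JAR1-OE, 1248 genes (7.06%) were at least 2-fold higher and 1339 (7.57%) at least 2-fold lower after 14 days without water, at an adjusted p under 0.05. In watered jar1-11 against WT the first set had a median log2 fold change of -0.13, with 782 values below 0 and 440 above, and the second a median of 0.00, with 670 below and 669 above. Beside -0.01 over all genes tested, these medians were small, and without WT library 1 they were -0.08 and -0.05. Of the well measured genes, 384 of 466 in the first set and 665 of 801 in the second were inside 2-fold. Over all well measured genes the share was 93.5%. In either set 0 genes passed the threshold. At an unadjusted p under 0.05 there were 93 lower and 25 higher of the 1248 genes in the first set. In the second there were 55 lower and 32 higher of 1339. Over all genes tested 3.49% were lower and 2.03% higher at that level. DESeq2 called 3 genes of the first set and 1 of the second, beside 13 of all 23101 it tested (0.0563%). The fit of the watered WT and jar1-11 libraries without WT library 1 called 8 and 8, beside 42 of 16507 (0.254%).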

How the data were processed

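Per the file headers, each of the 18 deposited files gives the authors' unique gene reads, whole-number counts of 27655 genes by gene ID. An entry for a YFP-JAR1 transgene (732 bases, 0 reads in the 6 libraries compared) was kept out of totals and tests. Per the labels' protocols, libraries were made from about 200 ng of RNA with a QuantSeq 3' kit. Aligner, counter, strand setting and build: not given in the sources used here. Of the gene IDs, 27445 matched RefSeq's TAIR10.1 annotation and 27444 of them with equal length, so coordinates and upstream sequence were taken from it. At totals of 4716155 to 9506727 reads, intervals were wider mainly below 10 CPM. No molecular identifiers are described, so floors cover counting error only.

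Counts were scaled by TMM, filtered with filterByExpr (9977 genes not tested, of at most 56 reads in all 6 libraries) and fitted by group over 18 libraries with the quasi-likelihood method of edgeR 4.0.16 in R 4.3.3. The biological coefficient of variation was 19.8%. Intervals (95%) used unshrunken coefficients and the moderated quasi-likelihood dispersion, and the threshold was an adjusted p under 0.05. Genes at 0 reads in a line got no interval and counted as not inside 2-fold. List medians kept their fitted values; with 3 reads over the group as a floor, the median of all genes tested stayed at -0.01, and only that of the root markers moved among the lists (-2.26 to -0.81). On data simulated for this comparison (17511 genes), 2.90% of 138 calls were false and 95.3% of intervals of well measured genes held the true value. Of 63 well measured genes changed 2-fold, 3 had an interval inside 2-fold. The simulation gave each gene the same spread in all groups and held no library that stood apart. How often the real intervals hold the true value was not tested. Alternatives were RLE scaling, DESeq2 1.42.0 (WT watered as the reference level), limma-voom (limma 3.58.1), no low-count filter, fits of 6 or 9 watered libraries, a replicate block, no organelle genes, each library left out, a 1.5-fold limit and 50 CPM.

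The comparison, the gene lists (drawn up from general knowledge) and the tests were chosen with earlier results of these data known. The genes named were JAR1, every gene past the threshold, the 2 most abundant and the most different well measured member of each list, the 5 most abundant genes, the 5 largest differences not past the threshold and 5 genes on each side of JAR1, and others are marked as named after their values were seen. Libraries of the same number deviated together by correlations of -0.41, 0.01 and -0.38 over genes. With WT library 1 standing apart, these values cannot show whether libraries of the same number shared a batch. The main fit assumed no pairing, and a replicate block was run as an alternative. A chi-square test of counts between replicates gave 5.54 to 27.9 per degree of freedom, more than counting error alone. So no library is a second sequencing of another. The test cannot tell whether the libraries came from different plants. Overlapping genes, antisense genes and near copies are uncertain, since only uniquely placed reads were given.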

Additional observations from a re-analysis of the deposited data

Results flagged for a closer look

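For 28 of the 90 named genes the difference between jar1-11 and WT was not the same in watered plants and in plants left without water. The test was edgeR's test of that difference (adjusted p under 0.05), and over all 17678 genes tested the share was 15.6%. Some named genes were picked for a large watered difference, which is part of the value tested. So their count cannot be read against that share. The values that follow are the drought log2 fold change minus the watered one. For JAR1 it was -1.43 ± 0.36 (adjusted p = 0.0135). Among JA genes it was 2.26 for JAZ1, -1.56 for JAZ9, -1.42 for AOC2, -4.44 for LOX2, -1.03 for MYC4, 2.11 for ST2A, -5.55 for MBP1 and 1.65 for GH3.6. For PDF1.2C it was -8.91 with an SE of 5.16, as the 3 jar1-11 drought libraries held 1 read of it in all. Among defence, ABA and stress genes it was 2.04 for WRKY70, 2.00 for WRKY46, 2.26 for RD26, 2.94 for ZAT12, 2.05 for TCH3, 1.85 for HSP90.1 and 1.78 for HSP70-4. Among genes of photosynthesis and water transport it was -1.53 for PSAG, -0.99 for PSBR and -2.54 for TIP1;2. Among the remaining genes it was -0.91 for GRP7, -2.06 for PRXR1, 3.56 for NIT2, 2.11 for AGP16, 1.04 for SPA1 and -3.37 for IAA29. JAL23 and CYCA1;1 had 0 reads in the jar1-11 drought libraries, against 133 and 18 in WT drought libraries, so their fitted values of -6.52 and -5.60 have no SE and are neither sizes nor bounds. In 15 of the 28 the drought value was the lower one and in 13 the higher. In watered plants JAR1 alone of these genes passed in the fit of 18 libraries, and NIT2 passed in the fit of 5 without WT library 1. WT library 1, which stood apart from the other watered libraries, is in the watered WT group behind every one of these differences, and its part in them was not tested.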

How the results depend on the processing

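JAR1 was lower in jar1-11 in every fit run, and it passed in all fits of 18, 17, 9 or 6 libraries except the 6 with a replicate block. The count of genes past the threshold was 1 under RLE scaling, limma-voom, no filter, no organelle genes and each library left out of 18, but 13 with DESeq2, 9 with the 9 watered libraries and 2 with the 6 libraries compared. In fits of the 6 libraries with each left out, chosen after seeing the data, the count lay between 1 and 42, the highest without WT library 1, and JAR1 lost its call in 4 of them (log2 fold changes of -1.99, -2.27, -2.09 and -2.09 with adjusted p-values of 0.0550, 0.0523, 0.1055 and 0.0847). Leaving out a library moved JAR1 between -2.28 and -1.99. The replicate block over 18 libraries gave 1 call, JAR1; in 6 libraries it gave 1 call, VSP1, and JAR1 had -2.13 ± 0.26 (adjusted p = 0.0553). Of well measured genes, 8838 to 9581 were inside 2-fold with each library left out of 18, and 8550 to 10117 out of 6; by 2 one-sided tests the ranges were 9055 to 9726 and 8946 to 10209. A 1.5-fold limit gave 5404 and 3908, and a minimum of 50 CPM 3040 and 3095 of 3212 genes. Of 1842 values of named genes under alternatives 91 had the other sign, called in neither; 5 values gained a call and 5 lost it. List medians moved by more than the spread between libraries in 69 values and by less in 482. The cause of these moves was not tested. Intervals were wider below 10 CPM, where 47.6% of genes between 1 and 10 CPM were inside 2-fold.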
